A study of Mus musculus with 20 samples.

Results

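The genes described here reached their highest level in the superior olivary complex (SOC) on the day of birth (P0). The SOC, a set of brainstem nuclei in the auditory pathway, compares sound between the ears. The genes were chosen by measured values: read counts were divided by the library total and multiplied by 1e+06 (CPM, counts scaled to a common library total), a mean of at least 5 CPM was required over P0 replicates 1 to 3, and the lowest of these 3 libraries had to exceed the highest of the 7 libraries of embryonic day 16 (E16) and postnatal day 16 (P16) by over 1.5 times. This rule found 200 of the 22734 genes of the count table, or 1.66% of the 12021 genes with at least 5 CPM at P0. P0 replicate 4 was left out of the rule because of its forebrain-type transcripts, and it therefore serves below as a library that the choice of genes did not use. The SOC levels at P0 against E16 and P16 are what the rule used, so they are given as a description without a test.

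The study sequenced total RNA of the mouse SOC and of the cochlea, whose sensory epithelium holds the hair cells, at E16, P0 and P16. All animals were wild type and untreated. The paper gives both sexes for the cochlea at each age and for the SOC at P0 and P16. It gives no sex for the SOC embryos of E16. The SOC came from C57Bl6/J mice (4 libraries each at E16 and P0 and 3 at P16) and the cochlea from C57BL/6JOlaHsd mice (3 libraries at each age). Every library was a pool of several animals. At P0 and P16 the brain was first taken out of the skull, whereas at E16 the SOC region was cut on a cryostat from frozen whole heads. The organs also differed in library kit (TruSeq Stranded for the SOC, NEBNext Ultra II Directional for the cochlea) and sequencer. Levels of SOC and cochlea therefore cannot be separated from these factors, and age contrasts were made within each organ.

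At birth, auditory brainstem neurons have settled in their nuclei and are forming synapses, but the animals do not yet hear; activity in the pathway starts in the cochlea itself. Inhibitory synapses of the SOC mature during this time, and many developing neurons release peptides beside their fast transmitters. Peptides and amines act on G-protein coupled receptors, which change the level of cyclic AMP, the activity of small G proteins or the opening of ion channels.

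The SOC libraries, which the labels call neuronal, held 20843679 to 28048053 counts. A count of 0 allows up to 3 counts, or up to 20 counts where a gene was left out of 1 of the 4 tables that had been joined (in this list only for 3 genes in P16 replicate 3). Bulk RNA cannot tell fewer cells of a type from less RNA per cell, and several marker lists moved with age. The summed CPM of 10 neuron markers, none of them a member, was 5051 to 6030 at E16, 8229 to 8626 in P0 replicates 1 to 3, 7766 in P0 replicate 4 and 6953 to 7405 at P16. Skeletal muscle markers summed to 1077 to 2207 CPM at E16 and to 24.5 to 81.5 CPM later, erythroid markers to 1577 to 3071 CPM at E16 and to 159 to 379 CPM later, and mature oligodendrocyte markers to 47411 to 51548 CPM at P16 and to 162 to 732 CPM earlier. Cartilage and bone markers summed to 5453 to 10833 CPM at E16 and to 52.7 to 144 CPM later. For pericytes and meninges the sums were 3345 to 4506 CPM at E16 and 745 to 1732 CPM later. Forebrain markers summed to 429 CPM in P0 replicate 4, 106 to 130 CPM in the other P0 libraries, 79.4 to 119 CPM at E16 and 37.6 to 38.8 CPM at P16. Markers of the superior olive and hindbrain summed to 195 to 328 CPM at E16, 233 to 335 CPM at P0 and 616 to 686 CPM at P16, with Hoxa3, Hoxa5 and Egr2 at 0 in P16 replicate 3. The part of these cell types in the results below was not tested beyond the values given.

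Among the 200 genes the lowest of P0 replicates 1 to 3 exceeded the highest E16 or P16 library by 1.501 to 4.25 times (median 1.71), by over 2 times for 47 genes and by over 3 times for 8. The mean at P0 ranged from 5.03 to 2192 CPM with a median of 39.4 CPM. 56 genes were over 100 CPM and 31 under 10 CPM. Relative to the mean at E16 the median gene was 2.37 times higher at P0, and relative to the mean at P16 it was 3.01 times higher. 135 of the 200 had a higher mean at E16 than at P16. The library that set the limit was an E16 library for 141 genes (E16 replicate 3 for 71) and a P16 library for 59 (P16 replicate 3 for 42). For comparison, 30% of the 12021 genes with at least 5 CPM had a higher mean in P0 replicates 1 to 3 than at E16 and at P16.

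**Figure D1:**
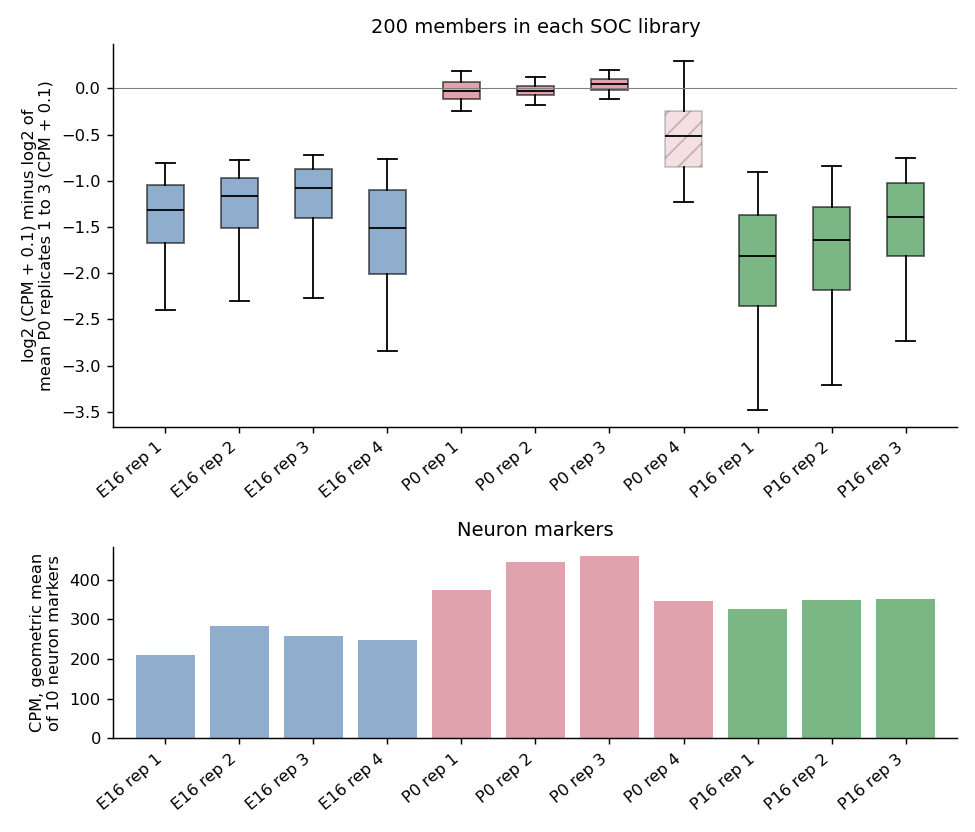
The upper panel shows, for each SOC library, the log2 difference of the 200 genes from their own mean in P0 replicates 1 to 3 (0.1 CPM added; line, median; box, quartiles; whiskers, 5th to 95th percentile), and the lower panel the geometric mean CPM of the 10 neuron markers. The median was -1.52 to -1.08 in the E16 libraries, -1.81 to -1.39 in the P16 libraries and -0.52 in P0 replicate 4 (hatched), while the neuron markers were also highest in P0 replicates 1 to 3.

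The threshold lay within a continuous range of values. Just inside it were Ccdc184 with a ratio of 1.501, Dclk3 with 1.502, Samd12 with 1.503, the glutamate transporter gene Slc1a6 with 1.503 and the lysosomal ATPase gene Atp13a2 with 1.51. Just outside were Apba1, Nptxr and Pcdh19 with ratios of 1.4996, 1.498 and 1.496, and Icam5 and Celf6 with ratios of 1.494 and 1.493.

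P0 replicate 4 did not enter the rule. In it, 170 of the 200 genes (85%) were above every one of the 7 E16 and P16 libraries, against 15.4% of the 12021 genes of at least 5 CPM. 73 of the 200 (36.5%) exceeded all 7 by over 1.5 times, against 2.05%. P0 replicates 1 to 3 shared a joined table with E16 replicates 1 to 3 and with no P16 library. The difference from P16 in the rule therefore crosses joined tables. E16 replicate 4, P0 replicate 4 and P16 replicates 1 and 2 shared another joined table. Among these libraries, 196 of the 200 (98%) were highest at P0, against 28.8%, and 150 (75%) by over 1.5 times, against 4.61%. The median log2 difference of P0 replicate 4 from E16 replicate 4 was 0.99 over the 200 genes and -0.01 over the 12021, and from the mean of P16 replicates 1 and 2 it was 1.29 against 0.28. The rule had already required low E16 and P16 values of the 200 genes, which the background genes did not have to meet, so these shares describe how far the P0 side held in a further library.

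The 4 genes that were not highest at P0 within that table were the urea cycle gene Ass1, the hair cell gene Lhfpl5, the insulin receptor substrate gene Irs4 and the complement-related C1ql2. C1ql2 was at 2.53 CPM in P0 replicate 4, below 7.72, 7.58 and 8.55 CPM in the other P0 libraries. A few genes were higher there than in the other P0 libraries. Sla, an adaptor of antigen receptor signalling, was at 86.1 CPM in P0 replicate 4 and at 14.6, 19.1 and 15.9 CPM in the others, and Fam49a at 412 against 179.6, 170.5 and 169 CPM. Both were chosen for mention after their values were seen, and the part of the forebrain-type transcripts in them was not tested.

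**Figure D2:**
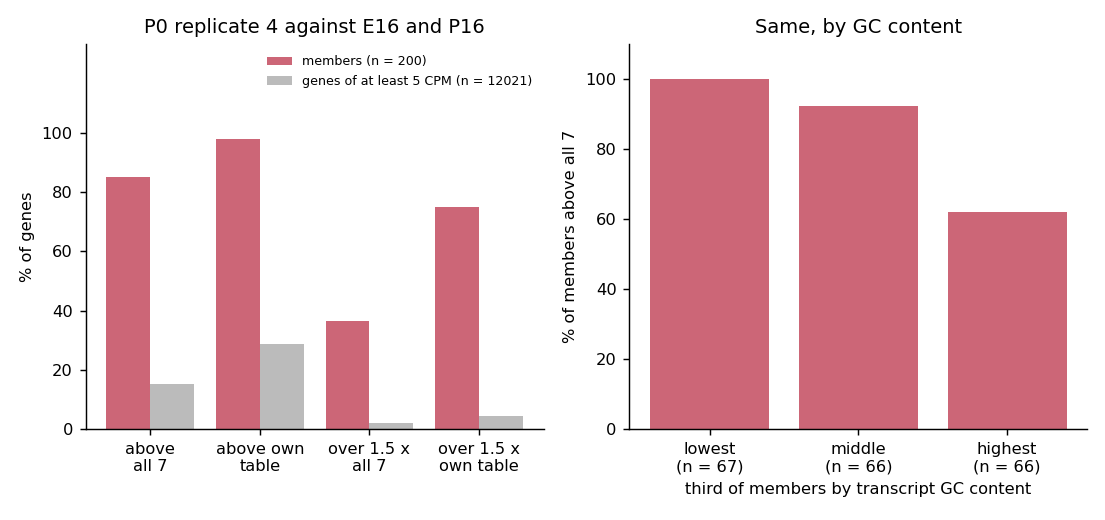
Left, the share of genes (%) whose CPM in P0 replicate 4 was above all 7 E16 and P16 libraries or above the E16 and P16 libraries of its own joined table, without and with a factor of 1.5, for the 200 genes and for the 12021 genes of at least 5 CPM. Right, the share of the 200 genes above all 7 in 3 parts of rising transcript GC content: 67 of 67, 61 of 66 and 41 of 66.

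The transcript GC content of the genes, which the rule did not use, had a median of 52.4% (quartiles 48.2% and 57.0%), against 49.5% (44.7% and 54.4%) over the 12021 genes, so the ranges overlapped widely; SOC libraries deviated from each other along GC content. Across genes, which are not independent replicates, the Spearman correlation of a library's deviation with GC content was 0.37 to 0.38 in P0 replicates 1 to 3, 0.15 to 0.41 in E16 replicates 1 to 3 and 0.15 in P16 replicate 3, but -0.54 in P0 replicate 4, -0.44 in E16 replicate 4 and -0.33 and -0.28 in P16 replicates 1 and 2. With that trend removed from each library, an alternative also added after the data were seen, 171 genes met the rule, of which 131 were among the 200. Split by GC content into 3 parts from low to high, 56 of 67, 46 of 66 and 28 of 66 genes were kept. Genes described below that were not kept included Cck, Oprk1, Adra2c, Doc2a, Nptx2, C1ql2, Kcnh3, Kcna3, Slc1a3, Aldh1l1 and Slc6a7. Also not kept were Gsg1l, Dner, Nrxn2, Brinp1, Brinp2, Bbc3, Vat1l, Agap2, Lhfpl5, Tmie, Cpne7, Hs3st4 and Atp13a2, among others. In P0 replicate 4 with the trend removed, 180 of the 200 were above all 7 libraries, against 15.1% of the background. Without removal, the background share was 9.79% among the 5146 genes between the quartiles of the members' GC content.

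Fewer genes met the rule relative to neuron markers. Divided by the geometric mean of the 10 neuron markers, which was 210 to 284 CPM at E16, 373 to 459 CPM in P0 replicates 1 to 3 and 327 to 350 CPM at P16, only 26 of the 200 genes met the rule, an alternative added after the data were seen. These were Adcy1, Aloxe3, Amn, Cdhr1, Lrat, Hpca, Dkkl1, Slc7a3, Eomes, Rasgrp2, Cntnap3, Pla2g3, Cpne7, L3mbtl1, Tmem145, Plppr4, Pla2g4e, Kcns2, Gabra5, Tmem191c, Gstm1, Tmem91, Lefty2, H2-Q2 and the uncharacterised 6330403A02Rik and A230006K03Rik. On this scale 97 of the 200 were above all 7 libraries in P0 replicate 4, against 3.87%. More neuronal RNA in a library and more of a transcript per neuron cannot be told apart.

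Neuropeptides are short signals cut from larger precursors and released beside fast transmitters. 5 of the 16 peptide and hormone genes with at least 5 CPM were members, from a list of 41, and 14 of the 16 had their highest mean at P0. Over all 12021 genes of at least 5 CPM these shares were 1.66% and 30%, which are the background for the later lists too. The counts are a description, since the rule used the same P0, E16 and P16 values. Sst encodes somatostatin, an inhibitory peptide of many interneurons. Sst was at 27.2, 29.9, 35.0 and 14.5 CPM in the E16 libraries, at 71.9, 81.4 and 82.3 CPM in P0 replicates 1 to 3, at 35.0 CPM in P0 replicate 4 and at 16.5, 21.1 and 26.6 CPM in the P16 libraries. The first 3 P0 libraries stood clear of all others, and P0 replicate 4 was level with the highest E16 library. Nts encodes neurotensin, which modulates dopamine and pain pathways. Nts was at 8.43, 8.82, 7.17 and 8.55 CPM in the E16 libraries, at 20.77, 19.3 and 21.9 CPM in P0 replicates 1 to 3, at 70.3 CPM in P0 replicate 4 and at 5.29, 6.24 and 6.10 CPM in the P16 libraries. All 4 P0 libraries lay above the other ages, with P0 replicate 4 far above the rest.

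Cck encodes cholecystokinin, a peptide of gut and brain. Cck was at 4.40, 3.83, 4.97 and 1.68 CPM in the E16 libraries, at 8.97, 7.998 and 8.33 CPM in P0 replicates 1 to 3, at 21.2 CPM in P0 replicate 4 and at 3.78, 4.90 and 4.31 CPM in the P16 libraries. Tac1 encodes the precursor of substance P and neurokinin A. Tac1 was at 15.6, 12.3, 11.9 and 14.7 CPM in the E16 libraries, at 34.7, 32.9 and 26.9 CPM in P0 replicates 1 to 3, at 37.3 CPM in P0 replicate 4 and at 12.7, 13.6 and 10.3 CPM in the P16 libraries. Calcb encodes a calcitonin gene-related peptide, a family also used by efferent neurons that project from the SOC to the cochlea. Calcb was at 1.41, 1.25, 1.80 and 2.49 CPM in the E16 libraries, at 6.62, 5.41 and 6.47 CPM in P0 replicates 1 to 3, at 3.78 CPM in P0 replicate 4 and at 1.75, 1.74 and 2.89 CPM in the P16 libraries. In these 3 genes, too, no E16 or P16 library reached a P0 library. Which cells gave these reads was not tested.

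The promoters of peptide genes are a textbook case of regulation by cyclic AMP, through the cAMP response element (CRE, TGACGTCA, with the core TGACG). The sequences are shown because peptide genes and the adenylate cyclase gene Adcy1 were on the list together. A link between Adcy1 and the peptide genes was not tested. RefSeq promoters (GRCm38.p6, 250 bases before to 50 after the start of the gene) were matched for 145 of the 200 genes, giving 184 promoters; of the 5 peptide genes Calcb was not matched. The bases before the start are printed for Sst (chr16:23890845-23891094, minus strand), Cck (chr9:121495695-121495944, minus), Nts (chr10:102490419-102490668, minus), Tac1 (chr6:7554811-7555060, plus) and the tubulin gene Tubb2a (chr13:34078009-34078258, minus), which had the highest CPM of the list. Capitals mark the CRE or its core on either strand and the E-box CACGTG.
Sst: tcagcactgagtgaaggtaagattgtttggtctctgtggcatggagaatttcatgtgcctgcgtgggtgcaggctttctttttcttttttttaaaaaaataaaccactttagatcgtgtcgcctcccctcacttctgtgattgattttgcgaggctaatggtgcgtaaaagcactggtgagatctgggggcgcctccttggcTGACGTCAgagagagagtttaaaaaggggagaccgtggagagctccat
Cck: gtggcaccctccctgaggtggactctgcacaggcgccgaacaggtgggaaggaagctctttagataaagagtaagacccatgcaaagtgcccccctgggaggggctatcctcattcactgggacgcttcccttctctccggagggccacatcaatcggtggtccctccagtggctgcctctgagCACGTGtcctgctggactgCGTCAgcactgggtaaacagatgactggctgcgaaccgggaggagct
Nts: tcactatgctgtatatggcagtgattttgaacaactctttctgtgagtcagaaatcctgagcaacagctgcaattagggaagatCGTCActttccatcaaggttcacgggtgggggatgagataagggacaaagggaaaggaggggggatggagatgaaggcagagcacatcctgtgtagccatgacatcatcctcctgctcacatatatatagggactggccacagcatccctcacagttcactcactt
Tac1: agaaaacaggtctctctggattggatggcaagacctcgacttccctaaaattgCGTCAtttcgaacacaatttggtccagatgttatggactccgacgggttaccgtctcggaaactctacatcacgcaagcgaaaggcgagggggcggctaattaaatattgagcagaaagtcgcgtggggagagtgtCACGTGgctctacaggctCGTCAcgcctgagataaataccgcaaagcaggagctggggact
Tubb2a: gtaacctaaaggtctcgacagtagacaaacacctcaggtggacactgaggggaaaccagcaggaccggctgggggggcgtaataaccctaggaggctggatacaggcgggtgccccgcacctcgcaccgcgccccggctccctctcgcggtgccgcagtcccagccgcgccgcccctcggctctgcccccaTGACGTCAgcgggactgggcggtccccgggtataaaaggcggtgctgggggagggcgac
The full CRE began 48 bases before the start in Sst and 59 bases before it in Tubb2a. It was found, over the 300 bases of each promoter, in 6 of the 184 promoters (3.26%) and in 1.79% of all 32851 promoters of the table; the other 4 belonged to Gm3764, Kctd8, Mir9-3hg and Mturn. The core TGACG, searched on both strands and contained in every full CRE, was held by 26.1% against 20.8%, and CACGTG by 12.5% against 7.15%. Cck and Tac1 carried a core and an E-box, and Nts a core alone. A match of letters is a description, not a site.

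**Figure D3:**
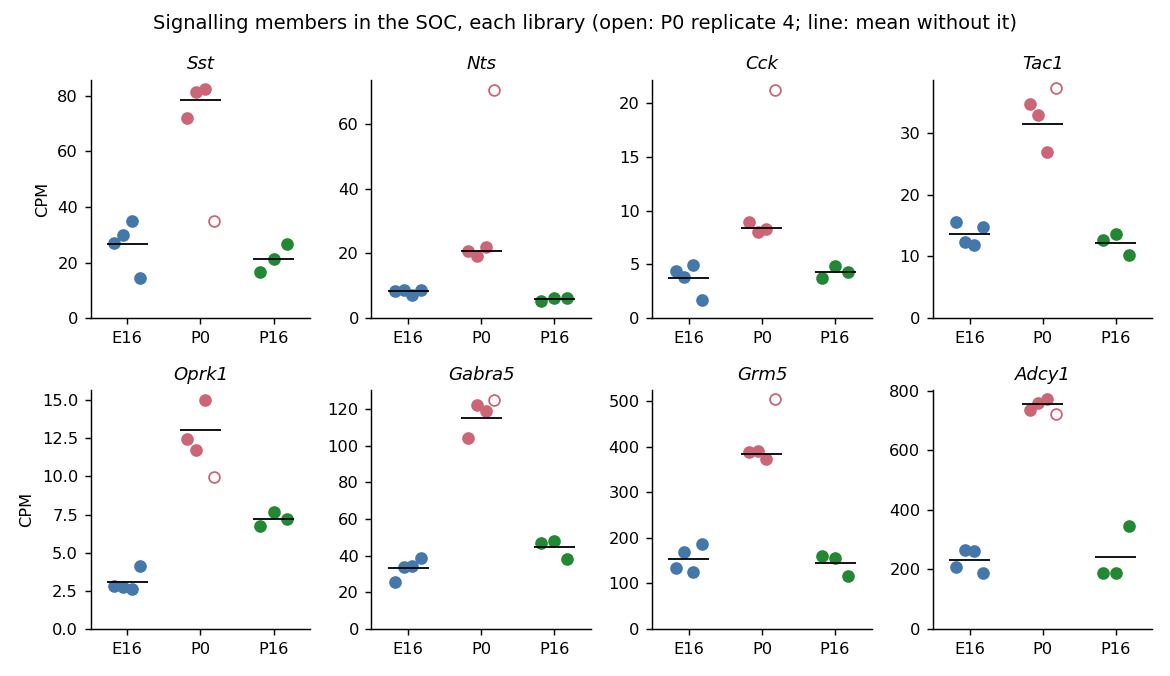
CPM of 8 genes in each SOC library at E16, P0 and P16 (points, libraries; open point, P0 replicate 4; line, mean without it). For Sst, P0 replicate 4 at 35.0 CPM falls level with the highest E16 library, whereas for Nts and Cck it lies at 70.3 and 21.2 CPM, above the other P0 libraries.

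Receptors for peptides and amines gave 4 members of 33 expressed genes. Oprk1 encodes the kappa opioid receptor. Oprk1 was at 2.81, 2.77, 2.64 and 4.13 CPM in the E16 libraries, at 12.4, 11.74 and 15.0 CPM in P0 replicates 1 to 3, at 9.94 CPM in P0 replicate 4 and at 6.76, 7.66 and 7.20 CPM in the P16 libraries. All E16 libraries were below all P16 libraries, which were in turn below all P0 libraries. Oxtr encodes the oxytocin receptor, and it was at 10.7, 9.43 and 10.7 CPM in P0 replicates 1 to 3, at 7.37 in replicate 4, at 4.17, 3.88, 4.79 and 3.48 CPM at E16 and at 2.39, 2.43 and 2.25 CPM at P16. The noradrenaline receptor genes Adra1b and Adra2c were at 20.1, 25.2 and 25.3 and at 20.3, 20.8 and 18.3 CPM in P0 replicates 1 to 3, and at most 11.2 and 10.3 CPM at E16 and P16. P0 replicate 4 at 9.83 CPM did not exceed the highest E16 or P16 library of Adra1b, and at 11.5 CPM it exceeded that of Adra2c.

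Fast inhibition in the SOC runs through GABA and glycine receptors. Gabra5 and Gabrg3 encode subunits of the GABA-A receptor and lie next to each other on chromosome 7, 20484 bases apart. Gabra5 was at 25.8, 34.0, 34.4 and 38.6 CPM in the E16 libraries, at 104, 122 and 119 CPM in P0 replicates 1 to 3, at 125 CPM in P0 replicate 4 and at 47.0, 47.9 and 38.4 CPM in the P16 libraries. Gabrg3 was at 6.89, 12.8, 9.45 and 12.8 CPM in the E16 libraries, at 30.1, 35.6 and 41.4 CPM in P0 replicates 1 to 3, at 32.1 CPM in P0 replicate 4 and at 18.7, 19.6 and 17.1 CPM in the P16 libraries. For both, all 4 P0 libraries were above all others. They were 2 of 19 expressed GABA and glycine receptor genes, against 1.66% of all 12021 genes. Of the 19, 13 had their highest mean at P0, against 30%.

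3 of 23 expressed glutamate receptor genes were members. Grm5 encodes the metabotropic receptor mGluR5, which acts through calcium release. Grm5 was at 134, 169, 124 and 186 CPM in the E16 libraries, at 389, 390.0 and 374 CPM in P0 replicates 1 to 3, at 505 CPM in P0 replicate 4 and at 161, 156 and 117 CPM in the P16 libraries. Grm3 encodes mGluR3, which lowers cyclic AMP, and was at 192, 166 and 147 CPM in P0 replicates 1 to 3, at 193 in replicate 4 and at no more than 72.6 CPM at E16 or P16. Grin3a encodes GluN3A, an NMDA receptor subunit of immature synapses, and was at 154, 143 and 162 CPM and 99.2 CPM in the same libraries and at no more than 88.0 CPM elsewhere. Of the 23 genes 18 had their highest mean at P0, against 30% of all 12021 genes.

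Of 46 expressed genes for synaptic vesicles and release, 4 were members. Rab3b encodes a small GTPase on synaptic vesicles, Doc2a a calcium sensor of release, Nptx2 a pentraxin that gathers AMPA receptors and C1ql2 a secreted synaptic organiser. Their means in P0 replicates 1 to 3 were 49.0 ± 7.47, 42.3 ± 1.16, 35.1 ± 2.58 and 7.95 ± 0.524 CPM (SD, n = 3). 39.4% of the exon bases of Doc2a lie under a gene on the other strand, and the use of strand in the counting is not given in the sources used here, so its counts are uncertain. 26 of the 46 genes had their highest mean at P0, against 30% of all 12021 genes.

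5 of 58 expressed potassium channel genes were members. Kcns2 encodes a silent subunit that modifies Kv2 channels. Kcns2 was at 12.4, 14.4, 13.2 and 17.5 CPM in the E16 libraries, at 47.6, 53.2 and 54.2 CPM in P0 replicates 1 to 3, at 41.3 CPM in P0 replicate 4 and at 14.7, 14.5 and 13.2 CPM in the P16 libraries. All P0 libraries lay at more than 2 times every other library. Kcnd2 encodes Kv4.2, a channel of the A-type current, and its partner gene Kcnip1 was also a member. Kcnd2 was at 244, 266 and 277 CPM and Kcnip1 at 103, 104.6 and 107 CPM in P0 replicates 1 to 3, against at most 117 and 58.8 CPM at E16 and P16. Kcnh3 and Kcna3 were at 7.09 and 16.7 CPM on average. The sodium channel gene Scn2a1, whose product starts action potentials in immature axons, was at 456, 481 and 543 CPM, with 549.7 CPM in P0 replicate 4, 141, 215, 170.0 and 259 CPM at E16 and 204, 251 and 205 CPM at P16.

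Some members act in second messenger signalling, a grouping made after the members were known. Adcy1 encodes a calcium-stimulated adenylate cyclase of neurons. Adcy1 was at 208, 264, 261 and 189 CPM in the E16 libraries, at 735, 759 and 772 CPM in P0 replicates 1 to 3, at 722 CPM in P0 replicate 4 and at 188, 187 and 347 CPM in the P16 libraries. All 4 P0 libraries were more than 2 times the highest other library. Hpca encodes hippocalcin, a neuronal calcium sensor. Hpca was at 37.4, 47.9, 51.8 and 31.7 CPM in the E16 libraries, at 122, 144 and 143 CPM in P0 replicates 1 to 3, at 70.4 CPM in P0 replicate 4 and at 31.1, 32.2 and 41.5 CPM in the P16 libraries. Rasgrp2 encodes an exchange factor that activates Rap. Rasgrp2 was at 26.9, 29.7, 32.3 and 25.7 CPM in the E16 libraries, at 101.2, 97.7 and 102 CPM in P0 replicates 1 to 3, at 67.6 CPM in P0 replicate 4 and at 13.3, 18.2 and 22.1 CPM in the P16 libraries. Rgs9, which shortens G-protein signals and is known for its expression in the striatum, was at 25.7, 25.9 and 29.3 CPM in P0 replicates 1 to 3 and at 22.1 CPM in replicate 4, so that this member of the forebrain marker list was not higher there.

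Some members encode matrix or adhesion proteins, likewise grouped after the members were known. Reln encodes reelin, a secreted guide of neuronal layering. Reln was at 189, 224, 207 and 178 CPM in the E16 libraries, at 447, 456 and 429 CPM in P0 replicates 1 to 3, at 449.7 CPM in P0 replicate 4 and at 149, 175 and 225 CPM in the P16 libraries. Ncan and Cspg5 encode the chondroitin sulfate proteoglycans neurocan and neuroglycan C. Cspg5 was at 124, 139, 160.3 and 111 CPM in the E16 libraries, at 395, 394 and 396 CPM in P0 replicates 1 to 3, at 266 CPM in P0 replicate 4 and at 72.1, 85.8 and 130.1 CPM in the P16 libraries. Ncan was at 340.5, 462, 482 and 199.8 CPM in the E16 libraries, at 793, 921 and 938 CPM in P0 replicates 1 to 3, at 412 CPM in P0 replicate 4 and at 152, 183 and 351 CPM in the P16 libraries. Neurocan in P0 replicate 4 lay below the E16 libraries 2 and 3, unlike in the other P0 libraries. Dner, which encodes a Notch ligand, and Nrxn2, a presynaptic adhesion gene, were at 478 ± 25.6 and 362 ± 49.3 CPM in P0 replicates 1 to 3. The cadherin gene Cdh13 was 1 of 17 expressed cadherins to be a member.

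Plppr4 encodes a lipid phosphatase-related protein of glutamatergic synapses. Plppr4 was at 39.7, 42.6, 42.0 and 41.4 CPM in the E16 libraries, at 146, 163 and 178 CPM in P0 replicates 1 to 3, at 163 CPM in P0 replicate 4 and at 38.7, 45.7 and 49.9 CPM in the P16 libraries. Its relative Plppr5 was also a member, at 50.2, 48.1 and 56.9 CPM in P0 replicates 1 to 3 and 76.6 CPM in replicate 4. Further relatives stood on the list together, and were picked out after their values were seen: Brinp1, Brinp2 and Brinp3, which restrain the neuronal cell cycle, the copine genes Cpne2, Cpne5 and Cpne7, the heparan sulfate sulfotransferase genes Hs3st4, Hs3st5 and Hs6st3, and the sodium pump modulator genes Fxyd6 and Fxyd7. Brinp1, Brinp2 and Brinp3 were at 206 ± 5.70, 84.1 ± 3.63 and 83.0 ± 2.74 CPM. Such relatives can share reads, and how the counting treated shared reads is not given in the sources used here.

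Among solute carriers 10 of 221 expressed genes were members. Slc1a3 encodes the glutamate transporter GLAST of astrocytes. Slc1a3 was at 409, 359, 459 and 462 CPM in the E16 libraries, at 707, 748 and 833 CPM in P0 replicates 1 to 3, at 719 CPM in P0 replicate 4 and at 398, 388 and 437 CPM in the P16 libraries. Aldh1l1, a folate enzyme used as an astrocyte marker, was at 217, 219 and 204 CPM in P0 replicates 1 to 3, 123 CPM in replicate 4, 91.6, 65.6, 99.2 and 65.3 CPM at E16 and 73.7, 82.4 and 122 CPM at P16. The other 10 of the 12 astrocyte markers were not members, and the list as a whole summed to 1209 to 1420 CPM at E16, 3775 to 4458 CPM in P0 replicates 1 to 3, 2876 CPM in P0 replicate 4 and 8809 to 9293 CPM at P16. Slc6a7 encodes a brain proline transporter and was at 72.0, 76.4 and 80.03 CPM in P0 replicates 1 to 3, 38.6 CPM in replicate 4, 12.7, 11.8, 14.2 and 10.1 CPM at E16 and 19.9, 26.4 and 42.6 CPM at P16. Slc7a3 encodes a transporter of arginine and lysine and was at 25.5 ± 1.99 CPM at P0.

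The largest ratios belonged to genes of varied functions. Amn encodes amnionless, part of a receptor for vitamin B12 uptake. Amn was at 5.44, 5.68, 5.93 and 3.18 CPM in the E16 libraries, at 33.7, 25.2 and 26.2 CPM in P0 replicates 1 to 3, at 11.9 CPM in P0 replicate 4 and at 2.43, 2.43 and 4.96 CPM in the P16 libraries. P0 replicate 4 lay below the other P0 libraries and above all 7 others. Lefty2 encodes an antagonist of Nodal signalling. Lefty2 was at 0.984, 1.20, 1.23 and 1.42 CPM in the E16 libraries, at 7.53, 5.92 and 6.78 CPM in P0 replicates 1 to 3, at 8.02 CPM in P0 replicate 4 and at 0.318, 0.446 and 0 CPM in the P16 libraries. The 0 in P16 replicate 3 comes from a joined table and allows up to 0.713 CPM. Pla2g3 encodes a secreted phospholipase. Pla2g3 was at 0.75, 1.06, 1.27 and 0.903 CPM in the E16 libraries, at 28.8, 36.0 and 32.3 CPM in P0 replicates 1 to 3, at 13.5 CPM in P0 replicate 4 and at 4.58, 5.95 and 7.02 CPM in the P16 libraries. Every P16 library was above every E16 library, and all 4 P0 libraries were above both.

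Eomes encodes a T-box factor of intermediate progenitors and of unipolar brush cells, excitatory interneurons of the cerebellum and cochlear nucleus. Eomes was at 2.58, 2.12, 1.89 and 1.33 CPM in the E16 libraries, at 11.8, 14.2 and 10.1 CPM in P0 replicates 1 to 3, at 11.3 CPM in P0 replicate 4 and at 0.995, 1.54 and 1.28 CPM in the P16 libraries. P0 replicate 4 lay among the other P0 libraries. Cdhr1, a cadherin gene known from photoreceptors and the olfactory bulb, was at 10.03, 13.9 and 10.5 CPM in P0 replicates 1 to 3, 6.31 CPM in replicate 4 and no more than 3.40 CPM elsewhere. Lrat, which stores retinol as esters, was at 9.88, 6.52 and 6.43 CPM in the same libraries, 9.34 CPM in replicate 4 and no more than 2.19 CPM elsewhere. Gstm1, a glutathione transferase, was at 68.5, 98.8 and 108 CPM, 47.4 CPM and no more than 21.4 CPM. The class Ib gene H2-Q2 had a ratio of 4.13, but its near-identical neighbours can share its reads. The other genes with ratios over 2.4 included Dkkl1, Hap1, Cntnap3, the kinase-like Camkv, Sidt1, Amy1 and Zfp853, with ratios of 3.02 for Dkkl1 to 2.44 for Zfp853. Amy1 shares 32.7% of its exon bases with a gene on the same strand, so its counts are uncertain.

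CPM is not divided by transcript length, so the order of levels is not an order of transcript numbers. The genes with the most counts after Tubb2a at 2399, 2106 and 2071 CPM in P0 replicates 1 to 3 were Ncan, Ahi1, Hap1, Slc1a3 and Adcy1. Hap1 was at 265, 248, 296 and 148 CPM in the E16 libraries, at 747, 789 and 823 CPM in P0 replicates 1 to 3, at 321 CPM in P0 replicate 4 and at 70.9, 94.3 and 174 CPM in the P16 libraries. Hap1 and Ahi1 encode partner proteins of neuronal transport; Ahi1 was at 779, 793 and 887 CPM in P0 replicates 1 to 3 and at most 445 CPM elsewhere. Mturn, Fxyd6, Dzip1 (28.4% of its exon bases under a gene on the other strand), Vat1l, Zcchc12, Wsb2 and Agap2 completed the 20 with Scn2a1, Dner, Reln, Cspg5, Grm5, Atp13a2 and Nrxn2. Wsb2 at 327 and Agap2 at 298 CPM were the lowest of these.

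Over all 12021 expressed genes 1.66% were members, so that a count of 0 in the following lists, given for completeness, is near the background. Axon guidance (66 expressed genes), growth factors and their receptors (51), cell cycle (17), immediate early genes (13), calcium channels (21), ribosomal proteins (77) and collagens (33) gave 0, as did the nicotinic receptor genes (4), the microglial and the oligodendrocyte marker lists. Of 280 expressed zinc finger Zfp genes 2 were members, Zfp92 and Zfp853. 190 of the 200 genes (95.5%) code for protein, against 97.6% of the 12021.

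The rule held both E16 and P16 below birth and so bears on P16 against E16 in the SOC. edgeR with Benjamini-Hochberg adjustment called 5 of the 200 genes higher at P16 (2.5%), against 11.7% of the 17372 genes tested and 11.9% of those with at least 5 CPM. It called 8 lower (4%), against 13.8% and 11.6%. The median log2 fold change was 0.02, against -0.03 over the genes of at least 5 CPM. Nothing is read from these shares or from the single genes, since the rule used the same 7 libraries and kept both ages under the same limit. The values below are a description with no test.

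The 5 genes higher at P16 were Pla2g3 (log2 fold change 2.84), Cidea, the kappa opioid receptor gene Oprk1 (1.52), Slc6a7 and Slc7a3. The 8 genes lower at P16 were Bbc3, which encodes the pro-apoptotic protein PUMA (-2.75), Fxyd6 (-1.83), Ly6h, Stag3, Etnk2, C2cd4c, Dkkl1 and Gm37785. Bbc3 was at 15.7, 17.4, 17.9 and 9.07 CPM at E16 and at 1.27, 1.22 and 2.99 CPM at P16. In P0 replicates 1 to 3 it was at 30.4, 27.8 and 28.2 CPM. All 3 P16 libraries were below all E16 libraries.

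In the cochlea 182 of the 200 genes were listed and 18 were at 0 in all 9 libraries. A 0 here allows up to 20 counts, since the cochlea libraries formed 1 joined table. The 18 included the peptide genes Sst, Nts, Cck and Calcb, so that Tac1 was the only peptide member detected there, and Eomes, Lefty2, Amn, Doc2a, C1ql2, Trpc7 and Dleu7.

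Over all 200 genes the median level in the cochlea was 4.52 CPM at E16, 5.54 CPM at P0 and 4.17 CPM at P16. 93, 104 and 92 of the genes had at least 5 CPM on average at these ages. The highest mean was at P0 for 76 of the 182, at P16 for 71 and at E16 for 35. The cellular makeup of the cochlea libraries changed with age as well. Neuron markers summed to 832 to 1037 CPM at E16, 527 to 611 CPM at P0 and 2494 to 2997 CPM at P16. Schwann cell markers summed to 603 to 704, 524 to 691 and 6060 to 6766 CPM, hair cell markers to 336 to 359, 610 to 683 and 1181 to 1414 CPM, and cartilage and bone markers to 5881 to 7122, 12384 to 14044 and 3294 to 4602 CPM. The part of these changes in the calls below was not tested.

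From E16 to P0 more of the genes were higher than lower in the cochlea. edgeR called 23 of the 182 higher at P0 (12.6%), against 4.57% of the 21829 genes tested and 2.11% of the 11897 tested genes with at least 5 CPM in the SOC at P0. It called 6 lower (3.3%), against 3.4% and 1.77%. The median log2 fold change was 0.48 over the 182 and 0.01 over the 11897. The 23 genes had a median GC content of 53.6% and the 153 that were not called 52.6%, and 2 of the 3 cochlea P0 libraries deviated towards GC-rich genes. With GC offsets in the fit 19 were called higher and 7 lower. With glmTreat, which tests against a fold of 2.5 itself, 1 was called higher and 1 lower, and without cochlea E16 replicate 3 or P0 replicate 3 the lower calls were 3.

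Aldh1l1 rose. Its values were 0.982, 1.41 and 1.53 CPM at E16, 6.36, 9.55 and 5.45 CPM at P0 and 17.6, 19.3 and 17.2 CPM at P16 (edgeR log2 fold change 2.53, SE 0.25, adjusted p = 5.48e-05 for P0 vs E16), so that each age lay above the one before. Slc16a14, of the monocarboxylate transporter family, was at 2.45, 2.48 and 2.57 CPM at E16, 9.18, 10.2 and 11.9 CPM at P0 and 1.62, 0.755 and 1.07 CPM at P16 (edgeR log2 fold change 2.15, SE 0.23, adjusted p = 8.04e-05). All P0 libraries were above all others. Plppr4 was at 1.11 ± 0.228, 3.78 ± 0.114 and 28.2 ± 3.45 CPM at E16, P0 and P16 (SD, n = 3) and rose from E16 to P0 (edgeR log2 fold change 1.84, SE 0.18, adjusted p = 5.69e-05). Plppr5 rose with a log2 fold change of 1.72. Oxtr rose from a low level (edgeR log2 fold change 2.13, SE 0.35, adjusted p = 9.64e-04), with 0.614, 0.641 and 0.261 CPM at E16, 1.85, 1.92 and 2.41 CPM at P0 and 0.491, 0.211 and 0.238 CPM at P16. All 3 P0 libraries were above all E16 and P16 libraries.

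Other receptors and channels that rose from E16 to P0 were Grm3 (log2 fold change 1.48), Adra1b (1.68), Kcnh3 (2.01) and the prostaglandin receptor gene Ptger3 (1.73). Lhfpl5 encodes a subunit of the mechanotransduction channel complex of hair cells. In the cochlea it was at 2.33, 2.99 and 2.38 CPM at E16, 6.49, 9.20 and 9.62 CPM at P0 and 9.03, 12.3 and 15.5 CPM at P16 (edgeR log2 fold change 1.81, SE 0.24, adjusted p = 2.92e-04). Its P0 and P16 libraries lay above all E16 libraries. Tmie, another component of that complex, was at 4.59 ± 0.488, 7.51 ± 0.477 and 10.1 ± 1.39 CPM at E16, P0 and P16 and passed no call in the cochlea. In the SOC these genes were at 13.9, 12.8 and 13.2 and 11.3, 12.2 and 12.9 CPM in P0 replicates 1 to 3. The 23 also included Cpne7, Aloxe3, Ass1, Sidt1, Gstm1, Tap1, Pla2g4e, Lrrc3b, Fam131c and 6330403A02Rik, and Cidea and Slc6a7 at 1 to 3 counts per E16 library. The 6 genes that fell were Tac1, Lrat, Irs4, Dclk3, Galntl6 and Hs3st4. Tac1 was at 12.5, 13.0 and 10.7 CPM at E16, 0.8, 0.959 and 1.03 CPM at P0 and 0, 0 and 0 CPM at P16 (edgeR log2 fold change -3.59, SE 0.19, adjusted p = 1.23e-05 for P0 vs E16). Galntl6 fell with a log2 fold change of -1.59 and Hs3st4, a sulfotransferase gene, of -1.37.

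**Figure D4:**
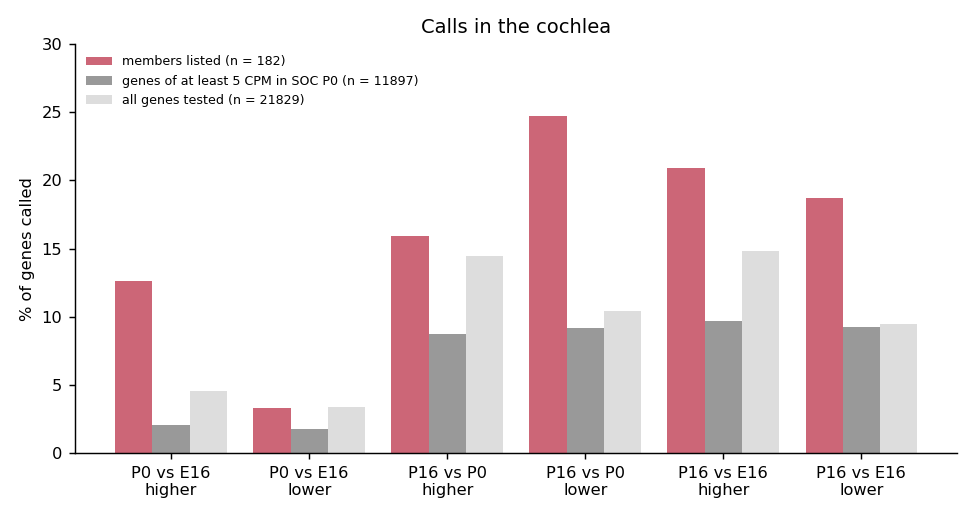
Share of genes (%) called higher or lower in the cochlea by edgeR for P0 vs E16, P16 vs P0 and P16 vs E16, for the 182 listed genes of the SOC birth list, for genes of at least 5 CPM in the SOC at P0 and for all genes tested. The birth list stood at 12.6% for genes higher at P0 than at E16 and at 24.7% for genes lower at P16 than at P0.

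From P0 to P16 the genes went both ways. 45 of the 182 were called lower at P16 (24.7%), against 10.4% of all genes tested and 9.16% of those with at least 5 CPM in the SOC. 29 were called higher (15.9%), against 14.5% and 8.73%. The median log2 fold change was -0.30, against -0.10 over the genes of at least 5 CPM. With glmTreat 28 were called lower and 17 higher.

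Among those that fell, Tac1 was at 0 in all 3 P16 libraries, at least 8.63 times below P0 when 3 counts per library are allowed. Vstm2b was at 20.5, 30.4 and 21.6 CPM at E16, 19.4, 24.3 and 20.4 CPM at P0 and 0.529, 0.151 and 0.159 CPM at P16 (edgeR log2 fold change -6.29, SE 0.35, adjusted p = 1.14e-07). Tmem132d was at 14.2, 14.2 and 16.02 CPM at E16, 21.7, 19.0 and 24.8 CPM at P0 and 0.264, 0.393 and 0.277 CPM at P16 (edgeR log2 fold change -6.10, SE 0.22, adjusted p = 6.66e-09). For both genes all P16 libraries were below 1 CPM. Zcchc12, Cdhr1, Rab3b, Ly6h, Grm3, Gm2061 and Syt17 followed with log2 fold changes from -4.96 for Zcchc12 to -3.80 for Syt17. Rab3b, the vesicle GTPase gene, was at 4.58, 6.24 and 5.10 CPM at E16, 8.47, 8.95 and 11.03 CPM at P0 and 0.491, 0.302 and 0.594 CPM at P16. Camkv, Gsg1l, Oxtr, Slc16a14, Kcns2 and Oprk1 also fell, and so did Hap1, with 35.7 ± 5.75, 56.2 ± 5.83 and 16.2 ± 0.869 CPM at E16, P0 and P16 (edgeR log2 fold change -1.81, SE 0.14, adjusted p = 1.32e-06).

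Among the genes that rose, Reln was at 5.40, 5.17 and 6.07 CPM at E16, 4.89, 9.62 and 7.18 CPM at P0 and 173, 149 and 174 CPM at P16 (edgeR log2 fold change 4.48, SE 0.23, adjusted p = 6.14e-08). Gjd2 encodes connexin 36, which forms electrical synapses between neurons, and was at 3.27, 2.22 and 2.496 CPM at E16, 2.11, 2.66 and 2.02 CPM at P0 and 42.9, 42.8 and 29.8 CPM at P16 (edgeR log2 fold change 4.07, SE 0.22, adjusted p = 9.59e-08). Vat1l, Slc41a2 and Osbp2 rose with log2 fold changes of 3.48, 3.28 and 3.19, Plppr4 of 2.88 and Kcnip1 of 2.87. Slc6a7 and Lrat were called higher as well, from P0 means of 0.335 and 0.0624 CPM, and no fold is given for such low counts. The summed neuron and Schwann cell markers given above were also higher at P16, and their part in these calls was not tested.

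**Figure D5:**
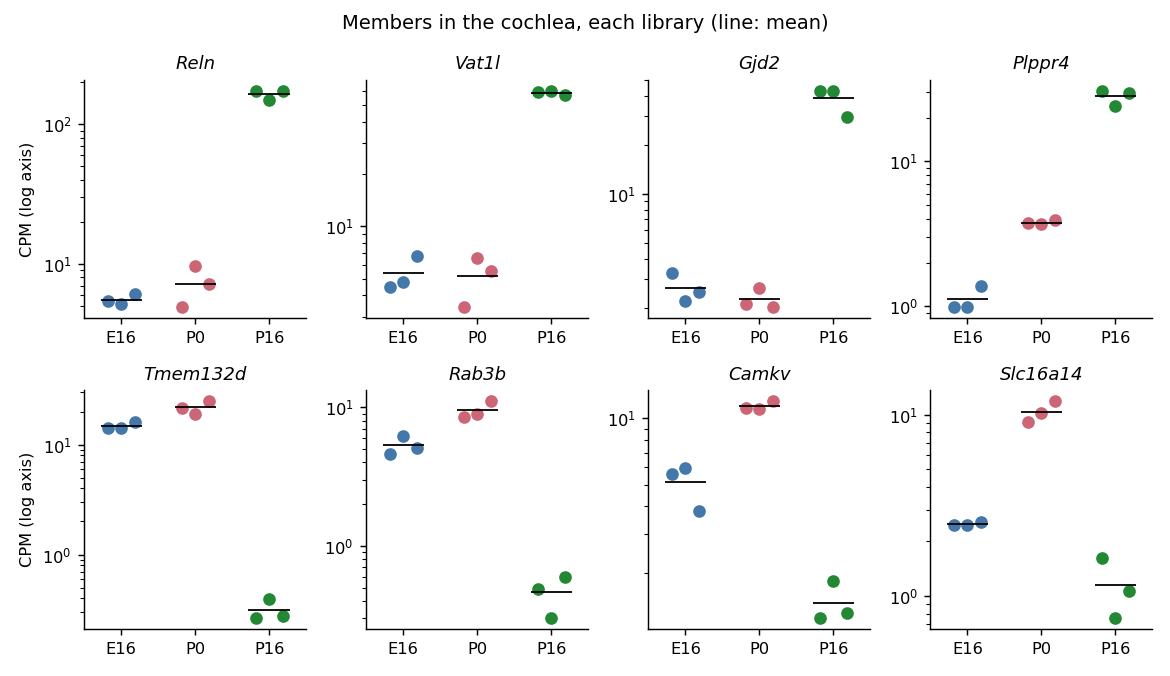
CPM (log axis) of 8 genes in each cochlea library (points, libraries; line, mean). Reln, Vat1l, Gjd2 and Plppr4 were highest in all 3 P16 libraries, Tmem132d and Rab3b were lowest in them, and Camkv and Slc16a14 were highest in the P0 libraries.

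Over the whole span from E16 to P16, 38 of the 182 were called higher (20.9%), against 14.8% and 9.68%, and 34 lower (18.7%), against 9.51% and 9.23%. The median log2 fold change was 0.12, against -0.13. With glmTreat 25 were called higher and 19 lower. Plppr4, Reln and Slc41a2 were among the genes that rose, with log2 fold changes of 4.72, 4.96 and 4.05. Vstm2b, Tmem132d, Cdhr1 and Zcchc12 were among those that fell, with -6.37, -5.45, -5.19 and -5.17. Tac1 was at least 112 times below E16 when 3 counts per library are allowed. Ncan, the neurocan gene, fell by the same test (edgeR log2 fold change -2.06, SE 0.19, adjusted p = 4.63e-06) from 59.3, 61.0 and 64.7 CPM at E16, 23.5, 38.7 and 37.0 CPM at P0 and 13.4, 15.4 and 13.4 CPM at P16. Fxyd6 rose in the cochlea (edgeR log2 fold change 2.64, SE 0.11, adjusted p = 8.89e-09), while its SOC value, a description only, was -1.83. Oprk1 fell in the cochlea (edgeR log2 fold change -1.86, SE 0.39, adjusted p = 0.00165), while its SOC value was 1.52. The difference between the organs was not tested.

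Calls in the cochlea were also counted over whole lists, members or not. From E16 to P0, 4.57% of all genes tested were called higher and 3.4% lower. Against these shares, 3 of 17 neuropeptide and hormone genes were higher and 4 lower, 8 of 34 peptide and amine receptor genes were higher and 1 lower, and 3 of 24 glutamate receptor genes were higher and 2 lower. From P0 to P16, 14.5% of all genes tested were called higher and 10.4% lower. Against these shares, 2 of the 17 peptide genes were higher and 10 lower, 8 of the 34 receptor genes higher and 10 lower, 6 of the 24 glutamate receptor genes higher and 9 lower, 35 of 84 potassium channel genes higher and 10 lower, and 18 of 44 synaptic release genes higher and 11 lower.

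The rule of the SOC was then applied to the cochlea. 5 of the 104 genes with at least 5 CPM in the cochlea at P0 met it there (4.81%), against 190 of 12931 genes (1.47%). These were Slc16a14, Camkv, Cspg5, Gsg1l and Rgs9. Camkv encodes a kinase-like protein of neuronal vesicles and was at 5.60, 5.98 and 3.799 CPM at E16, 11.2, 11.01 and 11.96 CPM at P0 and 1.25, 1.84 and 1.31 CPM at P16. Cspg5 was at 13.0, 15.2 and 13.9 CPM at E16, 31.2, 36.1 and 31.1 CPM at P0 and 13.4, 15.5 and 12.05 CPM at P16. Gsg1l, a gene for an AMPA receptor auxiliary subunit, was at 10.8, 13.4 and 10.95 CPM at E16, 23.5, 22.7 and 26.7 CPM at P0 and 2.30, 2.51 and 2.22 CPM at P16. Rgs9 was at 14.3, 15.6 and 13.1 CPM at E16, 25.8, 24.0 and 26.3 CPM at P0 and 11.8, 13.4 and 12.01 CPM at P16. In the SOC these 5 had ratios of 1.56, 2.47, 2.46, 1.80 and 1.77, in the order in which they are named. With the GC trend removed 5 genes met the rule in the cochlea. Without cochlea P0 replicate 1, 9 of the genes met the rule.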

How the data were processed

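Total RNA of 11 SOC and 9 cochlea libraries was sequenced. The authors deposited unnormalised counts of reads for each gene, from alignment to mm10 and GENCODE genes; the submitters' processing notes name STAR 2.5.3a, HTSeq and DESeq2. The annotation version and the use of strand in the counting are not given in the sources used here. By its values, the deposited table joins 4 tables, in each of which every listed gene reaches at least 21 counts in 1 library, so a 0 can stand for up to 20 counts. Libraries held 20843679 to 33109083 counts. Each is a pool of animals; p-values measure the spread between these pools, which may be partly technical, and floors cover counting error only.

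CPM was computed on library totals. Age contrasts were tested with edgeR 4.0.16 (R 4.3.3), quasi-likelihood test and TMM factors, with Benjamini-Hochberg adjustment over 21829 genes in the cochlea and 17372 in the SOC. A gene was called at an adjusted p under 0.01, a fold over 2.5 and no overlap of libraries between the groups. Alternatives were RLE and upper-quartile factors, filterByExpr, DESeq2 1.42.0, glmTreat, GC offsets, a replicate block, other settings of the rule and each replicate left out. Scripts were tested on simulated data. Tables and plots used Python 3.11.15, pandas 2.3.3, statsmodels 0.14.6 and matplotlib 3.10.9.

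The members and lists were chosen with earlier results of these data known. Genes were named from the 20 highest CPM, the 20 largest ratios, the 10 largest folds of each direction in each cochlea contrast, genes meeting the rule in both organs, the gene lists and the threshold neighbours; others named with values were chosen after their values were seen. Some genes that this rule names are not reported here. In none of the 4 contrasts tested did every pair of libraries with the same replicate number deviate together (correlations -0.291 to 0.568), so the numbers did not pair them. Between SOC E16 and P0, which was not tested, all 4 pairs did (0.41 to 0.672). Some pairs with unlike numbers did so more strongly. E16 replicate 3 was at 0.535 with P0 replicate 2 and at 0.427 with P0 replicate 3. E16 replicate 2 was at 0.475 with P0 replicate 3 and at 0.41 with P0 replicate 2.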

Additional observations from a re-analysis of the deposited data

Results flagged for a closer look

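In the 76 groups of 4 SOC libraries examined among the named genes, 6 had a library far from the other 3. A rate of about 1 group in 20 holds for groups that were not selected. It does not apply here, since the rule kept P0 replicates 1 to 3 high and left replicate 4 free. In 5 of the 6 groups the library was P0 replicate 4, and the cause was not tested. Rasgrp2 was at 67.6 CPM in it and at 97.7 to 102 CPM in the other P0 libraries, Hap1 at 321 against 747 to 823 CPM, Cspg5 at 266 against 394 to 396 CPM and Atp13a2 at 204 against 364 to 388 CPM. Grm5 was higher in it, at 505 against 374 to 390.0 CPM. Dkkl1 was at 2.02 CPM in E16 replicate 1 and at 3.43 to 3.55 CPM in the other E16 libraries.

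For P16 against E16, 2 genes were called in opposite directions in the organs. For Fxyd6 the log2 fold change was 2.64 in the cochlea but -1.83 in the SOC. For Oprk1 it was -1.86 in the cochlea but 1.52 in the SOC. The difference itself was not tested, and the SOC values are a description, since the choice of genes used those libraries.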

How the results depend on the processing

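Of 200 genes, 47 met a ratio of 2, 72 met the rule with P0 replicate 4 added and 26 met it relative to neuron markers. Other settings gave 169 (mean of 10 CPM), 172 (TMM, 153 shared), 171 (GC trend removed, 131 shared) and 200 (joined zeros at 20 counts); leaving out 1 library gave 200 to 302 genes, 302 without SOC P0 replicate 1. In P0 replicate 4, 170 of the 200 were above all 7 libraries, 73 by over 1.5 times and 97 relative to neuron markers. The rule in the cochlea gave 5 genes, 2 at a ratio of 2 and 5 to 9 with 1 library left out. With glmTreat against a fold of 2.5, calls higher and lower were 1 and 1 for cochlea P0 vs E16, 17 and 28 for P16 vs P0, 25 and 19 for P16 vs E16, and 1 and 4 for SOC P16 vs E16. With 1 library left out they were 17 to 25 and 3 to 6 (3 without cochlea E16 replicate 3 or P0 replicate 3), 28 to 30 and 41 to 47, 35 to 39 and 31 to 35, and 5 to 8 (8 without SOC E16 replicate 4) and 7 to 12 (12 without SOC P16 replicate 3). The replicate block gave 24 and 6, 30 and 47, 37 and 35, and 7 and 10; the numbers did not pair the libraries of these contrasts. Across the named genes and alternatives, 1651 values kept their direction and call, 82 kept the direction but not the call, and 0 reversed. The causes were not tested. A 0 allows up to 20 counts, which limits statements on low genes.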
